A study of Mus musculus with 6 samples.

Results

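Levels of 10 long noncoding RNA genes were examined in mouse oligodendrocyte precursor cells (mOPCs), chosen by name from the 23038 genes listed for each library: Malat1, Neat1, Miat, Gas5, Snhg1, Snhg11, H19, Meg3, Rian and Mirg. All 10 were found by symbol, each on 1 row, and 6 of them were abundant enough to be tested between conditions. mOPCs are the glial precursors that form myelinating oligodendrocytes (OLs), and Qk encodes the Qki RNA-binding proteins, which bind the letters ACUAAY in RNA, with Y for C or U. Primary mOPCs, immunopanned from mid-gestation mouse embryos of a strain that the sources used here do not name, were transfected with control siRNAs (siNC, 3 libraries) or with siRNAs against Qk (siQk, 3 libraries) and collected 72 h later. The siQk group drew on 3 different siRNAs, and which library received which is not stated. The comparison asked how transcript levels change in a nonneuronal lineage when Qk is knocked down.

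These genes make RNAs that act as RNA or carry smaller RNAs. Malat1 and Neat1 are neighbouring nuclear RNAs, of which Malat1 lies in nuclear speckles and Neat1 is the scaffold of paraspeckles, while Miat forms a nuclear domain of its own and carries repeats of the letters recognised at intron branch points by the splicing factor SF1. Gas5, Snhg1 and Snhg11 are host genes whose introns release small nucleolar RNAs (snoRNAs), the guides of ribosomal RNA modification, and spliced Gas5 and Snhg1 RNAs are known for rapid decay when translated. H19, Meg3, Rian and Mirg are imprinted and expressed from the maternal chromosome. H19 carries a microRNA in its exon, and the Meg3, Rian and Mirg region holds many microRNAs and snoRNAs. The libraries were made from poly-A selected RNA, whereas the ends of Malat1 and of the long form of Neat1 are made by RNase P cleavage beside an A-rich stretch of the RNA itself.

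The sequence feature that bears most directly on Qk is the repeat in Miat, shown here because its letters contain the Qki motif. In the GENCODE M21 annotation (GRCm38, the assembly of mm10), Miat lies at chr5:112213228-112229395 on the minus strand, and its longest transcript of 9163 nt held 6 copies of TACTAAC. Each window is printed 5′ to 3′ as DNA from the transcript strand, 29 bases long, with the match in capitals, and each lies within a single exon.
Miat chr5:112217433-112217461: tgtgattaaccTACTAACcaacccagggc
Miat chr5:112217333-112217361: cgagcatgtccTACTAACcccgcagcagc
Miat chr5:112217308-112217336: cagccaaacccTACTAACtctgcaggcca
Miat chr5:112216785-112216813: tgatgctgtgcTACTAACccggccctact
Miat chr5:112216771-112216799: taacccggcccTACTAACtggtttctctt
Miat chr5:112216751-112216779: gtttctcttctTACTAACccagccctgcc
The 6 copies started at positions 4941, 5041, 5066, 5589, 5603 and 5623 of the transcript, so they formed 2 clusters of 3, and the copies of the second cluster were 14 and 20 nt apart.

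The Qki motif was then counted in every one of the 10 genes, on the transcript strand only, as ACTAAC or ACTAAT in DNA letters, which overlap TACTAAC wherever the last 6 letters are the same. Miat held 14 matches, or 1.53 per kilobase, all between positions 4942 and 6852, and every ACTAA in the transcript was followed by C or T. Neat1 held 7 matches in its longest transcript of 20771 nt, which is 0.337 per kilobase, and 1 TACTAAC. Its short transcript of 3004 nt, near the exon length behind the Neat1 levels below, held 1 match, or 0.333 per kilobase. Meg3, Snhg11 and Rian held 3 matches each, Gas5 and Mirg 1 each, and Malat1, Snhg1 and H19 none. Across 13374 annotated long noncoding genes, by the longest transcript of each, the pooled density was 0.330 per kilobase, 33.4% held at least 1 match, 4.58% held a TACTAAC and 2 genes held 6 or more. By density Neat1 was therefore near the pooled value, and Miat was above it. A match is a description of the letters, and no binding was measured.

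**Figure D1:**
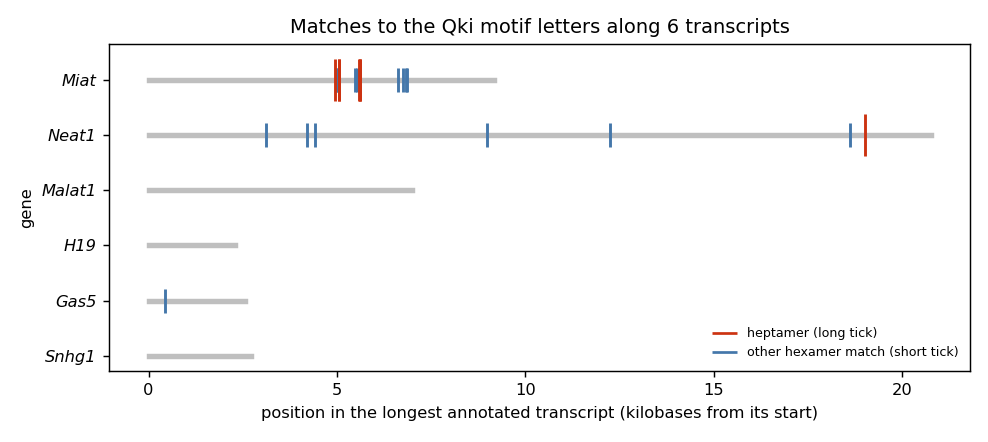
Matches to ACTAAC or ACTAAT along the longest annotated transcript of the 6 tested genes. The horizontal axis is the position in kilobases from the transcript start, grey bars are transcripts, long red ticks are TACTAAC copies and short blue ticks are the other matches. The 14 matches of Miat crowd between positions 4942 and 6852, the 7 of Neat1 are spread out, and Malat1, H19 and Snhg1 have none.

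The libraries held 58166490 to 141045937 tags, where a tag is the estimated number of reads or read pairs assigned to a gene. Qk averaged 193 ± 25.9 RPKM in siNC against 54.7 ± 20.4 RPKM in siQk (mean ± SD, n = 3 each), where RPKM is the tag number divided by exon length and by the total of the library. Its log2 fold change, siQk over siNC, was -1.98 (SE 0.28), with an FDR of 0.00311 in edgeR's quasi-likelihood test, and its ranges did not overlap. The 7 OPC markers were present, at a summed 927 to 970 RPKM in siNC and 1050 to 1255 RPKM in siQk. These sums are before TMM normalization, after which the ranges of siNC and siQk overlap. Of the 7 markers, Cspg4 rose by 0.93, Olig2 by 0.69 and Olig1 by 0.43 on the log2 scale, and Lhfpl3 fell by 1.07. Pdgfra, at 71.1 to 118 RPKM, was among the 3 not called. The 6 mature OL markers were also present, at a summed 2358 to 4542 RPKM in siNC and 957 to 1566 RPKM in siQk, and 5 of the 6 fell. Of 5 tested astrocyte markers 3 fell, with the summed list at 158 to 232 RPKM in siNC and 121 to 141 RPKM in siQk, and the part of these cell type markers in the values below was not tested. The 6 microglia markers stayed at 0.125 RPKM or less, with C1qa and C1qb at 0. Rn45s, a ribosomal RNA precursor, took 3.11% of the tags in siNC replicate 1 and 0.169% to 0.389% in the other libraries. In bulk libraries, fewer cells of a type and less RNA per cell cannot be told apart.

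The 10 genes together took 0.21% to 0.316% of the tags of a library, and they fell into an abundant and a nearly silent group. In siNC the order by mean RPKM was Neat1, H19, Malat1, Gas5, Miat and Snhg1, followed after a wide gap by Rian, Snhg11, Mirg and Meg3. Neat1, H19 and Malat1 ranked 142, 235 and 297 among the 23038 genes, but the ranges of Neat1 and H19 overlapped over the 3 libraries, as did those of H19 and Malat1. Below Malat1, neighbouring ranges in siNC were separate down to Snhg1 and Rian, and those of the 4 lowest genes overlapped. In siQk, H19 came after Malat1, and the ranges of neighbours were separate from Neat1 down to Snhg1 and Snhg11. Among the 6 abundant genes, H19 and Malat1 were the pair whose places by mean RPKM differed between the groups. That difference rested on siNC replicate 2. Without it the siNC means were 133 RPKM for H19 and 153 RPKM for Malat1, the order seen in siQk. The siNC medians, 152 and 156 RPKM, had that order too.

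**Figure D2:**
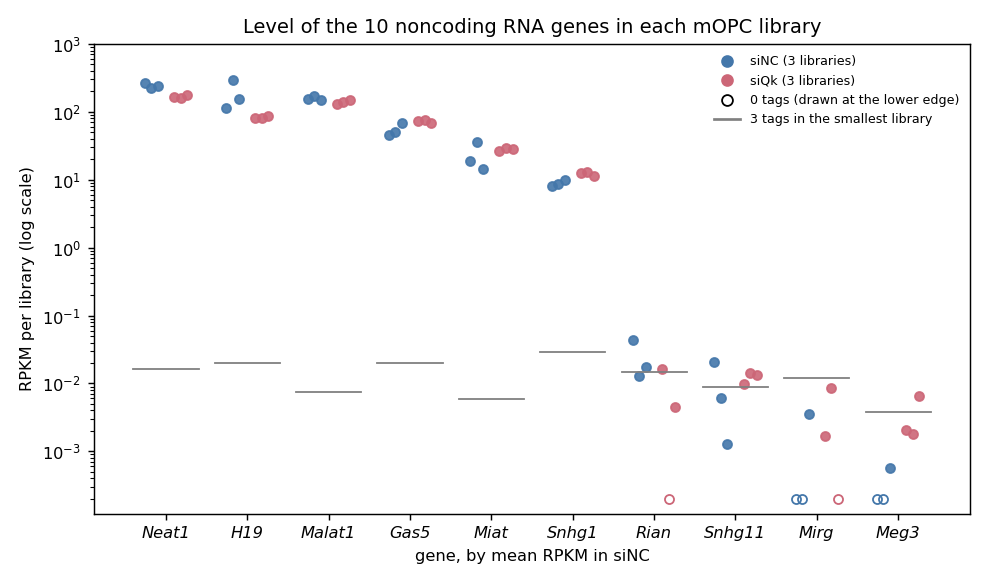
RPKM of each of the 10 genes in each library on a log axis, with siNC in blue and siQk in red, ordered by the siNC mean. Grey lines mark 3 tags in the smallest library, and open circles at the lower edge are libraries with 0 tags. Neat1, H19, Malat1, Gas5, Miat and Snhg1 lie far above that line in all 6 libraries, and Rian, Snhg11, Mirg and Meg3 lie around or below it.

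Between siNC and siQk, 3 of the 6 tested genes changed: Neat1 and H19 fell and Snhg1 rose. The call required P below 0.01 together with FDR below 0.1, and it was made over 12505 genes whose average logCPM exceeded 0. It took in 31% of all tested genes, 13.8% higher and 17.2% lower (with library sizes alone, 2989 calls were higher and 1365 lower), and nothing is read from the count of 3 about the 6 genes as a group. Their median on the log2 scale was -0.10, beside 0.01 over all tested genes. The RPKM ranges of siNC and siQk did not overlap for 4 of the 6, beside 58.3% of all tested genes, and on TMM-scaled totals again for 4 of the 6, beside 54.4%. Without siQk replicate 1 or without siQk replicate 2 a single gene of the 6 was called, Neat1 in both cases, and without siNC replicate 3 there were 5.

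Among the nuclear RNAs, Neat1 fell, Malat1 had a smaller fold change that missed the call, and Miat showed no call. Neat1 (chr19:5824708-5845478, minus strand) was at 270, 227 and 243 RPKM in siNC replicates 1 to 3. It was at 168, 159 and 176 RPKM in siQk replicates 1 to 3. Every siQk library was below every siNC library. The means were 247 ± 21.8 and 168 ± 8.44 RPKM, the log2 fold change was -0.71 (SE 0.11), a level of 0.611 times that of siNC, and the FDR was 0.00436 in edgeR's quasi-likelihood test. Neat1 was called under all 17 alternative settings, with log2 fold changes from -0.78 to -0.55. The exon length given for Neat1 was 3177 bases, near the 3004 nt of a short annotated transcript and far under the 20771 nt of the long one, so the level of the long form alone cannot be told apart.

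Malat1 (chr19:5795690-5802672, minus strand) was at 156, 173 and 151 RPKM in siNC. In siQk it was at 129, 140 and 152 RPKM. The highest siQk library, replicate 3, lay above the lowest siNC library, replicate 3, so the RPKM ranges overlapped. On TMM-scaled totals, where siNC was 153 to 180 and siQk 123 to 145, the ranges were separate. The log2 fold change was -0.34 (SE 0.099), with an unadjusted P of 0.0112, just outside the P cutoff, and an FDR of 0.0349 in edgeR's quasi-likelihood test. Malat1 shares exon bases with Gm37376 on the opposite strand, whose reads cannot be told apart from its own, since the library kit does not mark strand. Malat1 was called without siNC replicate 3, at -0.41, and by DESeq2, limma-voom and edgeR's likelihood ratio test. With library sizes alone its log2 fold change was -0.19, with an FDR of 0.149 in edgeR's quasi-likelihood test, and the FDR over the 17 alternatives ranged from 0.00400 to 0.149.

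The ratio of Neat1 to Malat1 within a library does not depend on the scaling of libraries. It was 1.73, 1.31 and 1.61 in siNC and 1.30, 1.14 and 1.16 in siQk. All siQk ratios were below all siNC ratios, although siNC replicate 2 was close to siQk replicate 1. The difference in mean log2 ratio was -0.36, with p = 0.1 in an exact two-sided permutation test, the smallest that 3 libraries against 3 can give. Neat1 exceeded Malat1 in all 6 libraries on the RPKM scale.

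Neat1 is the scaffold of paraspeckles, so the genes of 12 paraspeckle proteins were set beside it. The Neat1 level does not tell its long form from its short form, so it is not read as a level of paraspeckles. All 12 were tested, 5 rose, none fell and 7 were not called, with a median log2 fold change of 0.21. The share called was 41.7%, all of it higher, beside 13.8% of all tested genes called higher and 31% called in either direction. Hnrnph3 rose by 0.44 (SE 0.057), Nono by 0.36 (SE 0.064) and Sfpq by 0.32 (SE 0.077) on the log2 scale, with FDRs of 0.00251, 0.00719 and 0.0187 in edgeR's quasi-likelihood test. Ewsr1 and Tardbp, which encode further RNA-binding proteins, rose by 0.26 each. NONO and SFPQ are RNA-binding proteins of the paraspeckle core. Nono ranged from 96.5 to 107 RPKM across siNC and from 138 to 152 RPKM across siQk, without overlap, in the direction opposite to Neat1. Leaving out siQk replicate 1 or 2 lowered the count to 2. With library sizes alone, which moves the median of all genes from 0.01 to 0.16, the median of the 12 genes was 0.36 and 8 were called.

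Miat was at 19.1, 35.9 and 14.3 RPKM in siNC. In siQk it was at 26.6, 29.1 and 28.8 RPKM. The siNC libraries lay on both sides of the siQk libraries, with replicate 2 above and replicates 1 and 3 below, so the groups overlapped. The means were 23.1 ± 11.3 and 28.1 ± 1.37 RPKM, and the log2 fold change of 0.13 (SE 0.31) had an FDR of 0.751 in edgeR's quasi-likelihood test. The sign turned without siNC replicate 3, at -0.13, and the fold change was 0.58 without siNC replicate 2, uncalled in both cases. The mature OL marker sum was 4542, 4335 and 2358 RPKM in siNC replicates 1 to 3, lowest where Miat was lowest but not highest where Miat was highest, and its part in the spread of Miat was not tested. Miat likewise shares exon bases with Gm26953 on the opposite strand.

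Miat RNA is known to bind SF1, CELF3, SRSF1 and Qki proteins, so the genes of these 4 were examined as well. Sf1, which recognises the branch point, rose by 0.27 (SE 0.055) on the log2 scale, with an FDR of 0.0104 in edgeR's quasi-likelihood test. Its means were 36.8 ± 2.06 RPKM in siNC and 49.4 ± 2.02 RPKM in siQk, both before TMM scaling. Qk fell, as given above. Srsf1 had a log2 fold change of 0.30 (SE 0.087) with a P of 0.0115, outside the cutoff, and Celf3 one of -0.35 (SE 0.25), neither called. The gene with the densest Qki motif letters of the 10 was thus not called, in libraries where its siNC levels spread over 14.3 to 35.9 RPKM.

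**Figure D3:**
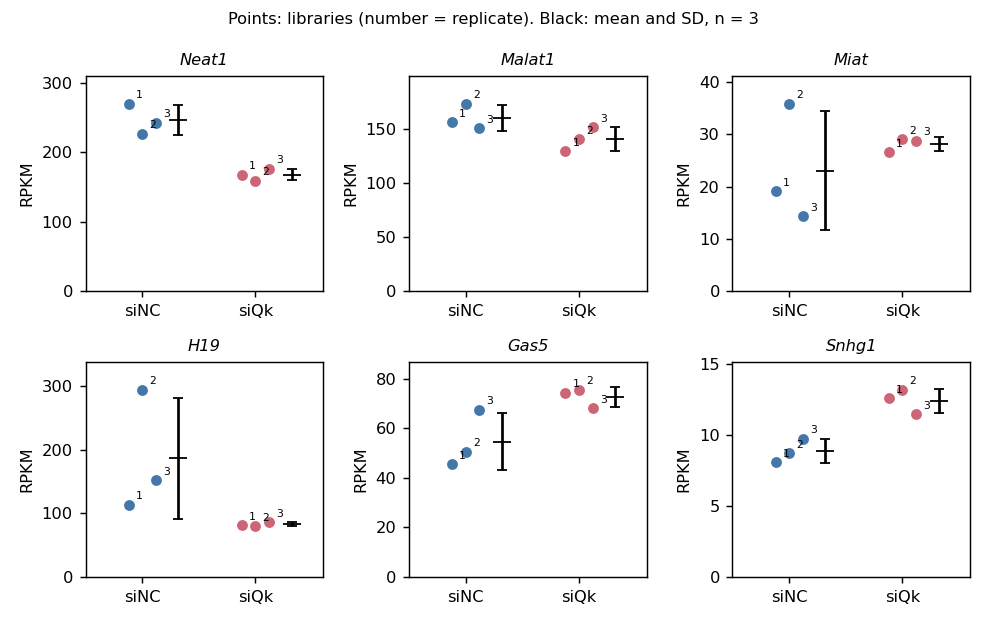
RPKM of the 6 tested genes in each siNC (blue) and siQk (red) library, numbered by replicate, with the mean and SD (n = 3) in black and axes that start at 0. Neat1 and H19 are lower and Snhg1 and Gas5 are higher in all siQk libraries than in any siNC library, while Malat1 and Miat overlap, and siNC replicate 2 stands highest for Miat and H19.

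Of the snoRNA host genes, Snhg1 rose, Gas5 was higher in all siQk libraries without a call, and Snhg11 was nearly silent. Snhg1 (chr19:8723475-8726443, plus strand) was at 8.10, 8.74 and 9.77 RPKM in siNC. In siQk it was at 12.6, 13.2 and 11.5 RPKM. Every siQk library was above every siNC library. The means were 8.87 ± 0.84 and 12.4 ± 0.872 RPKM, and the log2 fold change was 0.34 (SE 0.085), with an FDR of 0.0226 in edgeR's quasi-likelihood test. The call was lost without siNC replicate 1, siNC replicate 2, siQk replicate 1 or siQk replicate 2, and the fold change then stayed between 0.30 and 0.33.

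Gas5 (chr1:161034422-161038539, plus strand) was at 45.6, 50.6 and 67.6 RPKM in siNC. In siQk it was at 74.4, 75.6 and 68.1 RPKM. The RPKM ranges were separate by a narrow gap between siNC replicate 3 and siQk replicate 3, and on TMM-scaled totals they overlapped. The log2 fold change was 0.27 (SE 0.12), with an FDR of 0.121 in edgeR's quasi-likelihood test. Without siNC replicate 3 it was 0.42, with an FDR of 0.00823, and Gas5 was then called. The ratio of Gas5 to Snhg1 was 5.63, 5.79 and 6.92 in siNC and 5.91, 5.72 and 5.93 in siQk. The log2 ratios differed by -0.056 between the groups, with p = 0.9 in an exact two-sided permutation test, and the ranges overlapped.

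Snhg11 (chr2:158375638-158386145, plus strand), a host gene known mainly from neurons and annotated as protein coding in GENCODE M21, had 7, 4 and 1 tags in siNC and 8, 7 and 10 tags in siQk. These were levels of 0.0205 RPKM or less, and no fold change was taken from them. The neuron marker Stmn2 was likewise at 0.0439 RPKM or less in all 6 libraries. Of the 8 neuron markers 6 were tested, 2 rose, none fell and 4 were not called. Snap25 rose from 0.641 to 0.886 RPKM in siNC to 3.35 to 7.57 RPKM in siQk. Nefl rose from 1.63 to 2.35 RPKM in siNC to 6.06 to 6.52 RPKM in siQk. Of the 6 fold changes 4 were above 0, while Tubb3, the most abundant, and Rbfox3 were at -0.57 each, uncalled. The summed list was at 102 to 172 RPKM in siNC and 81.9 to 121 RPKM in siQk.

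Snhg1 and Gas5 were then placed among the other noncoding snoRNA hosts. Of 22 such genes, 21 were found in the files and 18 were tested, of which 5 rose, none fell and 13 were not called. The share called higher was 27.8%, beside 13.8% of all tested genes, and that called in either direction was the same 27.8%, beside 31%. Besides Snhg1, those that rose were Snhg4 by 0.59 (SE 0.13), Snhg17 by 0.57 (SE 0.096), Snhg12 by 0.50 (SE 0.14) and Snhg5 by 0.31 (SE 0.084) on the log2 scale. The 18 genes had a median log2 fold change of 0.34, and 16 of the 18 fold changes were above 0, beside a median of 0.01 over all tested genes. The summed level of the list was 268 to 371 RPKM in siNC, highest in replicate 3, and 391 to 427 RPKM in siQk. These sums are before TMM scaling, after which the ranges of siNC and siQk overlap. For Snhg7 the siNC libraries held 4.05, 4.11 and 7.24 RPKM and the siQk libraries 8.41 to 9.16 RPKM. Its log2 fold change was 0.62 (SE 0.22) and was not called, and siNC replicate 3 lay apart from the other 2. Snhg7 and, below, Snhg3 were picked out after their values were seen.

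The median of the host genes kept its sign under all 17 alternatives, from 0.29 to 0.49, while the number called depended on the libraries. It was 8 without siNC replicate 3, and 1 or 2 without siNC replicate 1, siNC replicate 2, siQk replicate 1 or siQk replicate 2. Snhg3 was the host with the lowest log2 fold change, -0.09 (SE 0.079), which was not called. Its mean was 29.2 ± 1.76 RPKM in siNC against 30.4 ± 1.0 RPKM after knockdown, both before TMM scaling.

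**Figure D4:**
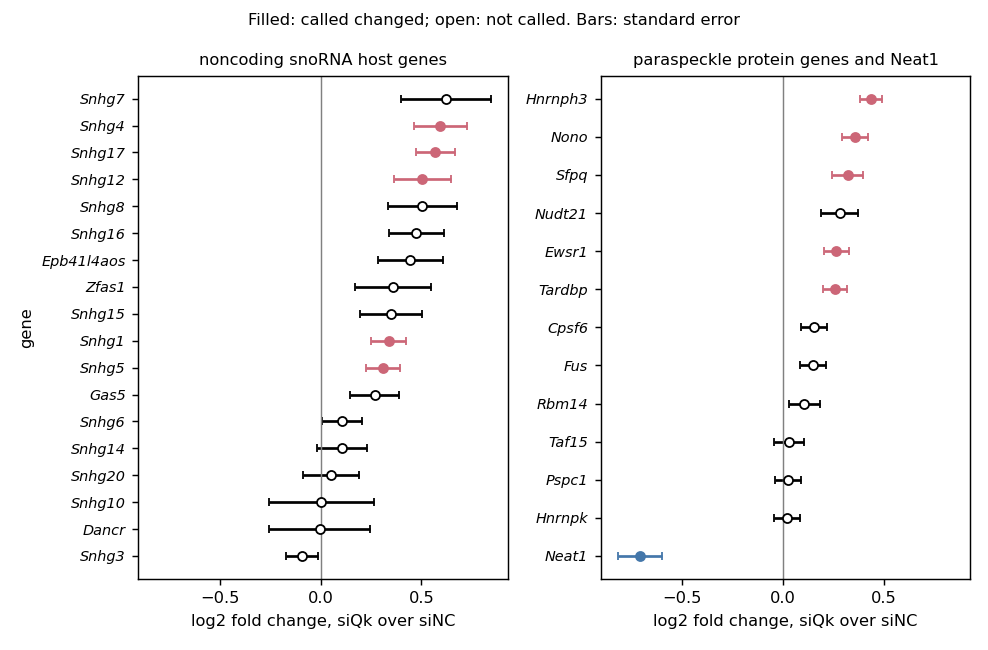
Log2 fold change, siQk over siNC, of the 18 tested noncoding snoRNA host genes (left) and of 12 paraspeckle protein genes with Neat1 (right), with standard errors as bars. Filled points were called changed and open points were not. Of the host genes 16 lie above 0 and 5 are called, all higher, and of the paraspeckle protein genes all 12 lie above 0 and 5 are called, while Neat1 lies at -0.71.

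Of the 4 imprinted genes H19, Meg3, Rian and Mirg, H19 was the one expressed at a level that allowed a test, and it fell. H19 (chr7:142575529-142578143, minus strand) was at 114, 294 and 152 RPKM in siNC. In siQk it was at 81.5, 80.1 and 86.4 RPKM. Every siQk library was below every siNC library, and the siQk libraries lay close together while siNC replicate 2 stood far above the other 2. The means were 187 ± 95 and 82.7 ± 3.28 RPKM, and the log2 fold change was -1.32 (SE 0.31), with an FDR of 0.0187 in edgeR's quasi-likelihood test. Without siNC replicate 2 the fold change was -0.84 and was still called. Without siQk replicate 1, 2 or 3 the FDR was 0.0517 to 0.0667 in the same test, with fold changes of -1.35 to -1.28. The call was lost each time through the P cutoff. Like Malat1 and Miat, H19 shares exon bases with genes on the opposite strand, Gm27483 and Gm27786.

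H19 is also the precursor of miR-675, whose hairpin lies within the gene from RefSeq coordinates on GRCm38.p6. The mature sequences are shown because the measured transcript carries them, with the seed, bases 2 to 8, in capitals.
mmu-miR-675-5p: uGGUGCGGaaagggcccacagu
mmu-miR-675-3p: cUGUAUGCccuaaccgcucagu
Their first bases lie 1011 and 1045 bases from the start of H19. The arms have different seeds. Poly-A selected libraries measure the H19 transcript and not the mature microRNAs, whose levels were not analysed here.

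Miat and H19 shared an uneven spread in the control libraries. The coefficient of variation over the 3 siNC libraries was 49.1% for Miat and 50.9% for H19, above those of 97.9% and 98.2% of tested genes, whose median was 10.8%. In siQk it was 4.87% and 3.97%, beside a median of 6.45%. Both genes were highest in siNC replicate 2. Igf2, the growth factor gene that shares its imprinted domain with H19, was also highest there, at 1.33, 4.40 and 2.61 RPKM in siNC and 1.92 to 2.26 RPKM in siQk, and was not called at -0.56 (SE 0.36). Igf2 was picked out after its values were seen. The summed neuron markers, mostly Tubb3, were highest in siNC replicate 2 as well, at 172 RPKM beside 102 and 110 RPKM in the other siNC libraries. Of the 9 fibroblast and vascular markers, none exceeded 0.375 RPKM, and Cldn5 was at 0. The part of any of these in the H19 values was not tested.

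**Figure D5:**
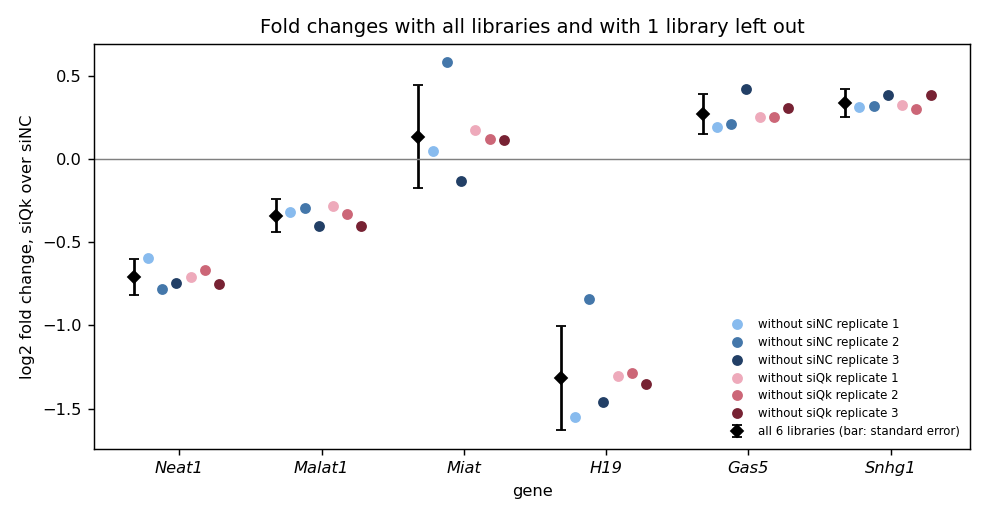
Log2 fold change, siQk over siNC, of the 6 tested genes with all libraries (black diamonds, bars are standard errors) and with 1 library left out (coloured points). Neat1, Malat1, H19, Gas5 and Snhg1 keep their sign in every case, H19 moves from -1.32 to -0.84 without siNC replicate 2, and Miat lies between -0.13 and 0.58.

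Meg3, Rian and Mirg, the noncoding RNAs of the Dlk1-Dio3 domain on chromosome 12, were at or near 0. Meg3 (chr12:109541001-109571726) had 0, 0 and 1 tags in siNC and 4, 2 and 11 tags in siQk, and it shares exon bases with Gm26906 on the opposite strand. Rian (chr12:109603940-109661716) had 9, 5 and 8 tags in siNC and 8, 0 and 2 tags in siQk. Mirg (chr12:109729764-109749460) had 0, 0 and 2 tags in siNC and 1, 3 and 0 tags in siQk. No library passed 11 tags for any of them, in libraries of at least 58166490 tags. A count of 0 allows up to 3 tags, which for Meg3 was 0.00381 RPKM in the smallest library, for counting error only. Every siQk library held more Meg3 tags than any siNC library, but at the closest this was 2 tags against 1. That is within the 3 tags that a count of 0 allows. For Rian and Mirg the groups overlapped. The 3 genes were under the filter on average logCPM, and without the filter none was called by edgeR's quasi-likelihood test, with unadjusted P of 0.0197 for Meg3 (FDR 0.0687), 0.114 for Rian and 0.664 for Mirg. The other genes of the domain were also low, with the protein-coding Dlk1 at 0.162 RPKM or less and Dio3 and its noncoding neighbour Dio3os at 0 in all 6 libraries, and Rtl1 was not found by symbol or identifier. The 3 planned ratios among Meg3, Rian and Mirg were not computed on plain RPKM, because a library held 0 tags in each. With 0.1 RPKM added to every value, well above all of these levels, the exact two-sided permutation p was 0.2 or more for each.

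Imprinted genes outside that domain covered a wide range of levels. Of 26 such genes, H19 included, 11 stayed under 1 RPKM in all 6 libraries, and the highest reached 683 RPKM. Of the 26, 18 were tested, 2 rose, 3 fell and 13 were not called, with a median log2 fold change of 0.10. The share called was 27.8%, beside 31% of all tested genes. Usp29 rose by 1.21 (SE 0.098) from 0.425 ± 0.0277 RPKM, and Peg10, a gene derived from a retrotransposon, rose by 0.87 (SE 0.13) from 21.8 ± 3.99 RPKM. Besides H19, Zrsr1 fell by 0.84 (SE 0.074) and Sgce, which lies beside Peg10, fell by 0.47 (SE 0.091). Neighbouring Peg10 and Sgce were thus called in opposite directions, and 3 of the 5 calls of this list were lower. Without siNC replicate 2 the number that rose was 4, and it was 5 with library sizes alone.

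Neat1, Malat1 and Miat were last set within a list of 36 long noncoding RNA genes of various functions. Of these 33 were found, and 20 of the 30 genes found besides the 3 were tested. Of the 20, 4 rose, 2 fell and 14 were not called, with a median log2 fold change of 0.092, and the 30% called stood beside 31% of all tested genes. Mir124a-1hg and Mir17hg, host genes of the neuronal microRNA miR-124 and of the miR-17 cluster, rose by 1.89 (SE 0.26) and 1.76 (SE 0.17) on the log2 scale, from 0.558 ± 0.2 and 1.07 ± 0.204 RPKM. Pantr1 rose by 0.56 (SE 0.065), to 42.6 ± 3.03 RPKM. The lower genes were 9630013A20Rik, a transcript known from newly formed OLs, which fell by 1.49 (SE 0.21) from 77.9 ± 14.1 RPKM, and Firre, a nuclear RNA that escapes X inactivation, which fell by 0.35 (SE 0.072). Among all the noncoding genes of this list, Neat1 had the highest mean level in siNC.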

How the data were processed

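RNA from mOPCs was measured in 6 libraries, 3 siNC and 3 siQk, grouped by their titles. The authors made TruSeq v2 libraries of poly-A selected RNA, which carry no strand information, used OLego to align the read pairs to mm10 and Quantas to count them (versions not given in the sources used here). For each gene the authors deposited an estimated count of tags, without normalization, the exon length, and an RPKM value, which recomputing showed to be the same tags divided by exon length and library total. Decimals were present for 23.1% to 26.1% of genes.

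Replicates were compared before averaging: chi-square per degree of freedom was 36.3 or more in every pair, so each library counted once. The counts were rounded to integers. In R 4.3.3 with edgeR 4.0.16 and limma 3.58.1, the quasi-likelihood test was run on genes whose average logCPM exceeded 0, after TMM normalization, with the group as the only term and the Benjamini-Hochberg adjustment over all 12505 genes tested. TMM factors were 0.899 to 0.987 in siNC and 1.04 to 1.07 in siQk. Calls required P below 0.01 together with FDR below 0.1. The step was tested on simulated data. Errors are SDs over 3 libraries or standard errors of the fit, and p-values measure the spread between these libraries.

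The genes named were all 10 genes, Qk, and from each list other than the cell type markers the called genes with up to 3 of the highest and 3 of the lowest fold changes, besides every Dlk1-Dio3 and Miat-binding gene and those said to be picked later. The genes and lists were chosen with earlier results of these data known. List symbols were matched directly or through Entrez identifiers. Marker lists, used to check the cells and named as examples, covered OPCs, mature OLs, neurons, astrocytes, microglia, and fibroblasts and vessels. Transcripts came from GENCODE M21 and microRNAs from RefSeq. The labels share replicate numbers, but deviations of same-numbered libraries correlated at -0.053, -0.15 and -0.34, so the numbers were not used as pairs. Alternatives were other normalizations, library totals, tests (DESeq2 1.42.0, limma-voom, edgeR's likelihood ratio test) and filters, a replicate block, thinning to the smallest library and each library left out. The same settings were applied to the gene lists after the data had been seen.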

Additional observations from a re-analysis of the deposited data

How the results depend on the processing

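Of 102 values of the 6 tested genes under 17 alternatives, 88 kept their sign and their side of the cutoffs, 8 lost a call, 5 gained a call and 1, Miat without siNC replicate 3 (-0.13), changed sign. Neat1 and Qk were called under all 17. The count of changed genes among the 6 was 2 with the replicate block, 4 with DESeq2, limma-voom or the likelihood ratio test, and 1 to 5 with each library left out. Over all genes the count was 2796 with the replicate block, 4894 with DESeq2 and 2478 to 3704 with each library left out, lowest without siQk replicate 1. The replicate block ended the call of Snhg1 (0.34, FDR 0.0748 in edgeR's quasi-likelihood test) and no other of the 6, and lowered the number called from 5 to 1 among the snoRNA hosts and from 5 to 3 among the paraspeckle protein genes. With each library left out the log2 fold change of Miat ranged from -0.13 to 0.58. The log2 ratio of Gas5 to Snhg1 differed by -0.11 to 0.036, above 0 without siNC replicate 3. On TMM-scaled totals the siQk means were 159 RPKM for Neat1, 26.7 for Miat and 78.5 for H19, moved by more than 1 SD, while 97 other level values moved by less. The causes were not tested. Ratios among Meg3, Rian and Mirg had a value with the 0.1 RPKM pseudocount but none on plain RPKM. Whether Snhg1, H19, Malat1 and Gas5 were called differed with the libraries that a group held. For Malat1 it also differed with the test, and for Snhg1 with the replicate block. Meg3, Rian, Mirg and Snhg11 were tested without the filter, where none was called.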
